A study of Mus musculus with 6 samples.

Results

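The opioid peptide precursors are the 4 genes *Pnoc*, *Penk*, *Pdyn* and *Pomc*, chosen by name from the 21249 named genes of the array, on which 6 of 41174 probes carry their names. Total RNA from whole testes of 3 wt mice and 3 *Prss55*-/- mice, all males of 6 to 8 weeks on a mixed 129Sv/C57BL/6 background, was hybridized to single-dye whole mouse genome arrays, 1 array per mouse. PRSS55 is a membrane-anchored serine protease of male germ cells, and its gene was disrupted by homologous recombination. The arrays asked which testis transcripts differ when the protease is lost. *Pnoc* was among the genes already known to differ on these arrays, so the values of the precursors in this comparison are given as a description, with no p value. Other genes with a detected probe were tested with limma, with p values adjusted by the Benjamini-Hochberg method over all tested probes.

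Opioid peptides are cut out of larger precursor proteins in the secretory pathway. Prohormone convertases cut the precursor at pairs of basic residues, carboxypeptidases trim the ends, and the released peptides act on receptors that couple to inhibitory G proteins. *Penk* encodes the enkephalins, *Pdyn* the dynorphins, *Pomc* beta-endorphin together with corticotropin and the melanocortins, and *Pnoc* nociceptin, the ligand of the related receptor encoded by *Oprl1*. In the testis, *Penk* transcripts are known from germ cells, *Pomc* products from Leydig cells and *Pnoc* from Sertoli cells.

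The 6 probes read different parts of their transcripts, and for 3 of them the bases show which. The array files place them on the mm9 build of the mouse genome. The following probe sequences, taken from the array files, are shown because they lie in the part of the transcript that encodes an active peptide. Capitals mark the codons of Met-enkephalin in *Penk*, those of the last 7 residues of nociceptin in *Pnoc* and the stop codon in *Pomc*.
*Penk* peptide probe, chr4:4061458-4061517, minus strand: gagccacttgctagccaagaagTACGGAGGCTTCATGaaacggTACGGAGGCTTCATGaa
*Pnoc* peptide probe, chr14:66023641-66023700, minus strand: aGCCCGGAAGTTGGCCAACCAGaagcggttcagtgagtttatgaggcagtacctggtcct
*Pomc* peptide probe, chr12:3960413-3960472, plus strand: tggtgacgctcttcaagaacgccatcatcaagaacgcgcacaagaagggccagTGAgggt

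The *Penk* peptide probe holds 2 copies of the Met-enkephalin codons, separated by codons for a lysine and an arginine, a pair of basic residues at which convertases cut. In the *Pnoc* peptide probe the nociceptin codons are followed by the same kind of basic pair. The *Pomc* probe covers the last 53 bases before the stop codon, which encode the end of beta-endorphin. The other 3 probes lie elsewhere. The second *Penk* probe is at chr4:4060735-4060794 on the minus strand, and the *Pdyn* probe at chr2:129512323-129512382 on the minus strand. The second *Pnoc* probe, at chr14:66020505-66020564 on the minus strand, is called the 3′ probe here, since it starts at base 1102 of the transcript and the peptide probe at base 808. Its first 30 bases are shown because it is the *Pnoc* probe that gave a signal.
*Pnoc* 3′ probe, first 30 bases: gtctcaccacgatcctgttgctacatcaga

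The pair of *Pnoc* probes starts 294 bases apart in the transcript but 3136 bases apart in the genome, so that 2842 bases of the genome between them are not in the transcript. For *Penk* both distances are 723 bases. Over the 4578 transcripts of the array with a pair of such positions, the distances were the same in 61.3%, the genomic one was longer in 38.5% and it was shorter in 0.175%. The *Pnoc* 3′ probe thus lies in another exon than the peptide probe by the array's own positions.

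The scanner software called 69.5% to 72.9% of the spots of an array well above background and no spot saturated. The 3 *Prss55*-/- arrays shared 1 slide and the wt arrays lay on 2 others, so genotype and slide cannot be told apart. The samples were separate mice, and their number limits the precision. The *Prss55* probe read 15.08, 14.95 and 14.93 on the log2 scale of normalized signal in *Prss55*-/- testis and 15.87, 15.77 and 16.01 in wt testis. Every *Prss55*-/- array was thus below every wt array, although the transcript was still detected, with a difference of -0.90 (standard error 0.080, limma adjusted p = 0.010, and 0.066 to 0.068 without *Prss55*-/- replicate 2, *Prss55*-/- replicate 3 or wt replicate 1, and 0.071 by the methods' t-test). Whether this probe lies outside the disrupted part of the gene was not determined, so it is no check of the genotype. The paper checked the knockout by RT-PCR, Western blotting and immunofluorescence, and reported that PRSS55 RNA and protein were absent.

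*Pnoc*, the nociceptin precursor, was higher in *Prss55*-/- testis at its 3′ probe and at background at its peptide probe in both genotypes. At the 3′ probe the normalized log2 signal was 11.09, 11.26 and 11.25 on the 3 *Prss55*-/- arrays and 10.09, 10.30 and 10.18 on the 3 wt arrays. The lowest *Prss55*-/- array lay 0.79 above the highest wt array, so the genotypes did not overlap. The means were 11.20 ± 0.097 (SD, n = 3) and 10.19 ± 0.11 (SD, n = 3), a difference of 1.01 on the log2 scale or 2.02-fold. Before normalization between arrays, the processed signals were 2079, 2394 and 2690 in *Prss55*-/- testis and 1063, 1210 and 1198 in wt testis. On each of the 6 arrays this signal was called well above background. The paper listed *Pnoc* among its up-regulated genes on these arrays and reported a rise of similar size by qRT-PCR.

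On none of the 6 arrays was the *Pnoc* peptide probe well above background. Its log2 signal was 3.01, 3.11 and 2.95 in *Prss55*-/- testis and 3.27, 2.99 and 3.23 in wt testis, so the genotypes overlapped and no fold can be given. The probe over the nociceptin codons thus gave no signal above background, while the 3′ probe of the same gene did. Such a split, with 1 probe well above background on all 6 arrays and another on none, occurred in 21.4% of the 8976 genes with several probes. Why the 2 probes differed was not tested.

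*Penk*, the proenkephalin gene, was detected on all 6 arrays by both of its probes, which differed by less than 0.10 between the genotypes. The 3′ probe, which starts at base 1300 of the transcript, read 15.79, 15.75 and 15.84 in *Prss55*-/- testis and 15.69, 15.76 and 15.69 in wt testis, and the genotypes overlapped. The peptide probe, which holds the enkephalin codons shown above, read 12.59, 12.55 and 12.58 in *Prss55*-/- testis and 12.39, 12.53 and 12.52 in wt testis. Its genotypes were 0.020 apart, less than the SD of 0.080 within wt testis. The differences were 0.079 on the log2 scale (means 15.79 ± 0.043 and 15.71 ± 0.039, SD, n = 3) and 0.093 (means 12.57 ± 0.019 and 12.48 ± 0.080, SD, n = 3), or 1.06-fold and 1.07-fold. Both *Penk* probes thus gave a small difference of the same sign.

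A further pair of probes carries a preproenkephalin clone in its description but another gene name, and neither is counted among the precursors. The one named *Sdr39u1* lies 4.12 kb from the *Penk* 3′ probe on the same strand and was well above background on all 6 arrays, at 5.33 to 5.56 in *Prss55*-/- and 5.63 to 5.71 in wt testis. The one named *A830012C17Rik*, on the opposite strand, was not well above background on any array.

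*Pomc*, the precursor of beta-endorphin and the melanocortins, read slightly lower in *Prss55*-/- testis. Its probe, at the end of the beta-endorphin coding sequence, read 13.41, 13.51 and 13.46 in *Prss55*-/- testis and 13.80, 13.55 and 13.65 in wt testis. All *Prss55*-/- values were below all wt values, but the gap of 0.043 was smaller than the SD of 0.12 within wt testis. The means were 13.46 ± 0.050 and 13.66 ± 0.12 (SD, n = 3), a difference of -0.20 on the log2 scale or 86.8% of the wt signal. Genotypes that do not overlap were common on these arrays, with 28.1% of the tested named genes.

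*Pdyn*, the prodynorphin gene, lay at the edge of detection. Its probe was well above background on *Prss55*-/- replicate 1 and on wt replicates 2 and 3. The log2 signals were 6.35, 4.29 and 4.24 in *Prss55*-/- testis and 5.05, 6.06 and 6.49 in wt testis. The values overlapped and spread over 2.11 on the log2 scale within *Prss55*-/- testis, so no fold is given. *Pdyn* and the *Pnoc* peptide probe did not pass the filter for testing. That filter kept a probe when the 3 arrays of either genotype, or of both, all read it above background.

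**Figure D1:**
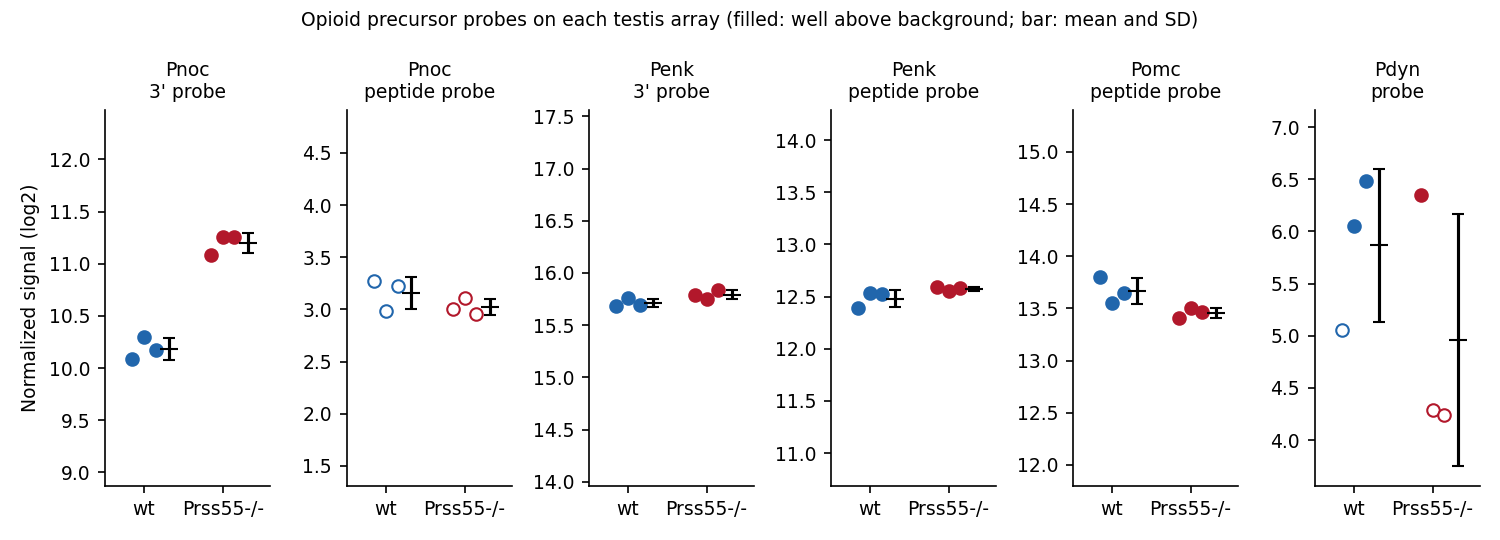
Normalized log2 signal of the 6 opioid precursor probes on each array (1 point per mouse, wt in blue, *Prss55*-/- in red, each panel spanning the same log2 range at its own level). Filled points are well above background and bars are mean and SD (n = 3). The *Pnoc* 3′ probe separates the genotypes by 0.79, and the *Pnoc* peptide probe is at background throughout. The *Penk* probes differ by 0.079 and 0.093, and *Pomc* by -0.20.

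By the call applied to every gene, a limma adjusted p below 0.05 at the brightest tested probe, 1 of the 3 precursor genes that could be counted, *Pnoc*, was called, beside 1.19% of the 16583 named genes tested (0.609% higher and 0.585% lower in *Prss55*-/- testis). Over all 28615 tested probes the share was 1.21%. Since the precursors were chosen with this comparison in view, nothing is read from that count. The median difference over the named genes was -0.0037 on the log2 scale.

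The receptors for these peptides were partly below detection and none of them passed the test. The list held the opioid receptors, the opioid growth factor receptor *Ogfr* and the 5 melanocortin receptors, through which *Pomc* products act. Of its 10 genes 6 were tested, and 4, *Oprd1*, *Oprk1*, *Mc1r* and *Mc5r*, were not well above background on any array. The count at an unadjusted limma p below 0.05 was 0 as well, as it was for the methods' t-test after adjustment. The delta and kappa opioid receptors are the main targets of enkephalins and dynorphins. Each had 1 probe, at background in both genotypes, which does not show that its transcript was absent.

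The mu receptor gene *Oprm1* was detected by 1 of its 3 probes, at 6.06, 6.23 and 6.21 in *Prss55*-/- and 5.61, 5.93 and 6.29 in wt testis. Its genotypes overlapped, with a difference of 0.23 (standard error 0.17, limma adjusted p = 0.51). The nociceptin receptor gene *Oprl1* read 9.53, 9.66 and 9.67 in *Prss55*-/- and 9.71, 9.56 and 9.69 in wt testis on its brighter probe. That difference was -0.036 (standard error 0.067, limma adjusted p = 0.80), while its other probe differed by -0.54 (limma adjusted p = 0.093). Neither *Oprl1* probe passed the threshold, and the sizes on the 2 probes were unlike.

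The genes that process the precursors were convertases, carboxypeptidases, *Ctsl* (cathepsin L), the aminopeptidase *Rnpep*, the amidating enzyme *Pam*, the convertase chaperone *Scg5* and the convertase inhibitor *Pcsk1n*. They were all tested, 14 of 14, and none passed the adjusted threshold. At an unadjusted limma p below 0.05, 1 was higher and 3 were lower, and the median difference of the list was 0.050. The largest differences were those of 3 proprotein convertases. *Pcsk7*, a convertase of the secretory pathway, read 11.11, 11.06 and 10.80 in *Prss55*-/- and 11.36, 11.22 and 11.32 in wt testis. For *Pcsk2*, the neuroendocrine convertase that releases enkephalin and nociceptin, the values were 10.51, 10.76 and 10.69 against 11.00, 10.90 and 11.00. The values of *Pcsk5* were 8.05, 8.14 and 8.29 against 7.90, 7.80 and 7.99. The genotypes did not overlap for any of the 3, as for 28.1% of all named genes tested. The differences were -0.32, -0.31 and 0.26 on the log2 scale, with limma adjusted p values of 0.16, 0.11 and 0.17. *Pcsk1*, the other neuroendocrine convertase, and *Cpe*, the carboxypeptidase that trims the cut ends, differed by 0.060 and -0.026 (limma adjusted p = 0.78 and 0.89). The germ cell convertase *Pcsk4* differed by 0.046 (limma adjusted p = 0.83).

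Among the peptidases that degrade opioid peptides, 12 of 13 genes were tested and none passed. At an unadjusted limma p below 0.05, 1 was higher and 1 was lower, with a list median of 0.016. *Mme*, which encodes neprilysin, an enzyme that inactivates enkephalins, had the largest difference of all pathway genes at their brightest tested probes. It read 7.36, 7.04 and 7.28 in *Prss55*-/- testis and 7.78, 7.73 and 7.73 in wt testis, without overlap (28.1% of all named genes tested). The difference was -0.52 (standard error 0.088, limma adjusted p = 0.060). Without *Prss55*-/- replicate 1 it was -0.59 (limma adjusted p = 0.035), where 868 probes passed in place of 345. With any other array left out the limma adjusted p of *Mme* was 0.084 to 0.21. Its other probe differed by -0.44 (limma adjusted p = 0.15). *Mmel1*, a membrane metalloendopeptidase related to neprilysin, gave a difference of the opposite sign, from 15.77, 15.79 and 15.90 in *Prss55*-/- and 15.48, 15.59 and 15.56 in wt testis. At 0.27 (standard error 0.059, limma adjusted p = 0.091) it did not pass either. *Ece1*, the endothelin converting enzyme, differed by -0.13 (limma adjusted p = 0.43), and *Ace*, the angiotensin converting enzyme, by -0.010 (limma adjusted p = 0.95).

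The cargo proteins of dense-core granules, in which neuropeptides are stored, gave small differences that did not pass. *Chgb*, *Chga* and *Scg3* differed by 0.048, 0.028 and 0.0086 (limma adjusted p = 0.77, 0.86 and 0.97), *Scg2* was not well above background on any array, and the array has no probe named *Vgf*. Of the signalling genes, which encode inhibitory G protein subunits, arrestins, receptor kinases and potassium channels, 11 of 13 were tested and none passed. The largest differences were -0.29 for *Gnao1*, -0.19 for *Kcnj9* and 0.16 for *Gnai1* (limma adjusted p = 0.41, 0.31 and 0.27). At an unadjusted limma p below 0.05, 1 of the signalling genes was higher, 0 were lower and 0 of the granule genes differed.

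Over the 5 lists, 46 of 55 genes were tested and 0 passed the limma adjusted threshold, beside 1.19% of all named genes. The methods' t-test gave 0 after adjustment. At an unadjusted limma p below 0.05 there were 3 higher and 4 lower, together 7 of 46, beside 19.8% of all named genes tested. The median difference of the 46 genes was 0.031 on the log2 scale.

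**Figure D2:**
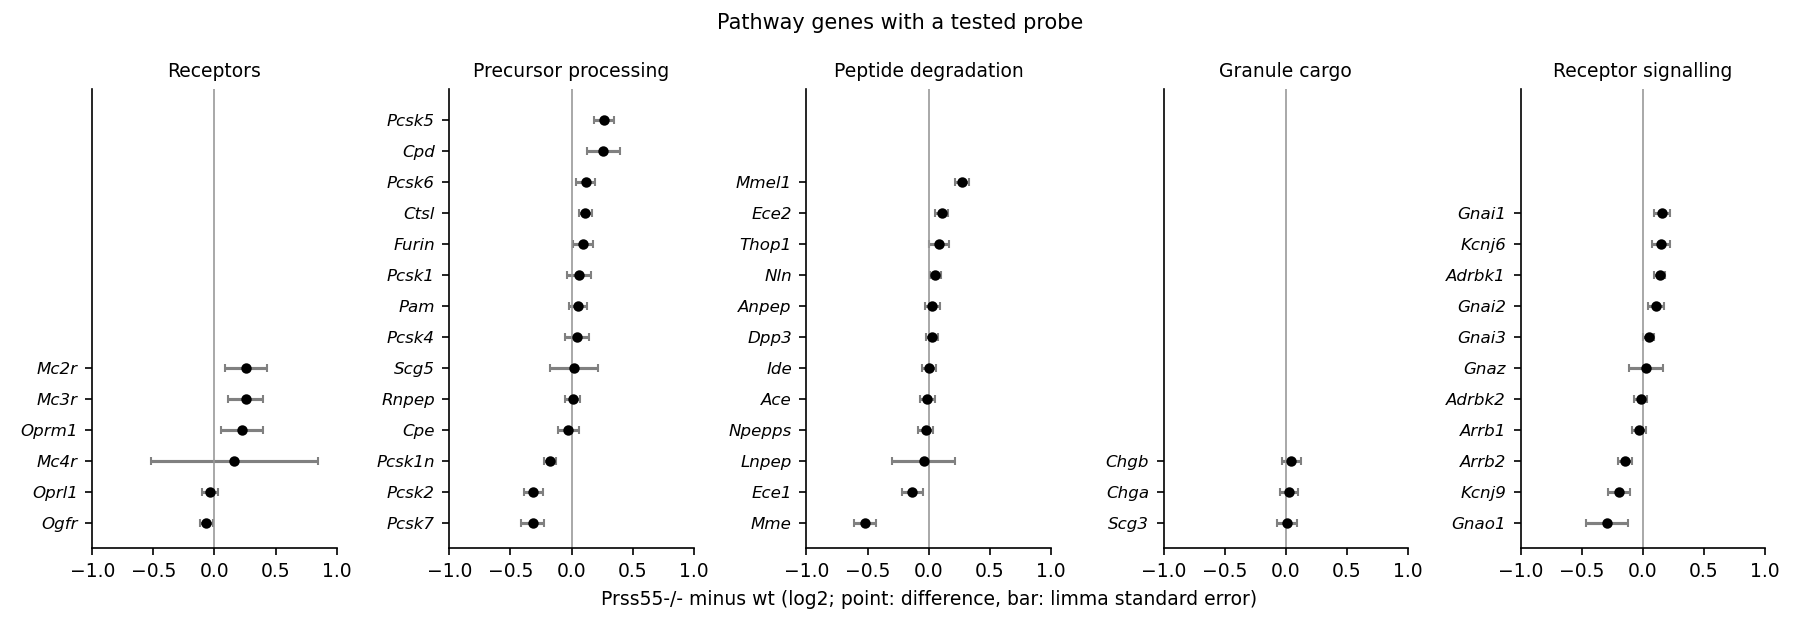
Log2 difference between *Prss55*-/- and wt testis for the 46 tested pathway genes, each at its brightest tested probe, by list. Bars are the limma standard error (3 arrays per genotype). The differences lie between -0.52 (*Mme*) and 0.27 (*Mmel1*), and none passed the adjusted threshold.

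*Pnoc* lies on chromosome 14, as does *Prss55*, with 1.33 Mb between their probes. The mice had a mixed strain background, and the strain of the DNA around *Prss55* was not determined in either genotype. For genes this close, loss of the protease and a strain difference in linked DNA therefore cannot be told apart. Of the 19 other named genes tested within 1 Mb of the *Pnoc* probe, 1 was higher in *Prss55*-/- testis past the limma adjusted threshold and 0 were lower. It was *Elp3*, which encodes the catalytic subunit of the Elongator complex and lies 129 kb from *Pnoc*. *Elp3* read 12.01, 11.88 and 11.88 in *Prss55*-/- testis and 11.21, 11.27 and 11.30 in wt testis. The difference was 0.66 (standard error 0.058, limma adjusted p = 0.0098), and the adjusted p rose above 0.05 when *Prss55*-/- replicate 2 (0.061), *Prss55*-/- replicate 3 (0.061) or wt replicate 1 (0.064) was left out. At an unadjusted limma p below 0.05, 2 of the 19 were higher and 3 lower. The shares over all named genes were 1.19% at the adjusted and 19.8% at the unadjusted threshold. The median of the 19 genes was -0.021.

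The nearest tested gene was not called. *Zfp395*, a zinc finger gene on the opposite strand with its probe 3.05 kb from the *Pnoc* 3′ probe, read 8.07, 8.24 and 8.36 in *Prss55*-/- and 8.42, 8.45 and 8.41 in wt testis, a difference of -0.20 that did not pass (limma adjusted p = 0.24). It was chosen after its values were seen.

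Around the other precursors, 0 of 7 genes near *Penk* on chromosome 4 and 0 of 21 near *Pomc* on chromosome 12 passed the limma adjusted threshold. At an unadjusted limma p below 0.05, 2 of the 7 and 3 of the 21 differed, and the methods' t-test gave 0 after adjustment in both. Near *Pdyn* on chromosome 2, 2 of 38 passed, both higher in *Prss55*-/- testis, and at an unadjusted limma p below 0.05 there were 4 higher and 3 lower. Over all named genes tested the shares were 1.19% at the adjusted and 19.8% at the unadjusted threshold. *Ckap2l*, which encodes a protein of the mitotic spindle, differed by 0.52 (limma adjusted p = 0.021), from 12.29, 12.33 and 12.30 against 11.69, 11.81 and 11.86. *Gm14023*, a predicted gene on the same side of *Pdyn*, differed by 0.68 (limma adjusted p = 0.030), from 9.19, 8.91 and 8.93 against 8.35, 8.37 and 8.28. The *Ckap2l* call was lost without *Prss55*-/- replicate 2, *Prss55*-/- replicate 3, wt replicate 1 or wt replicate 2, and the *Gm14023* call without any array other than *Prss55*-/- replicate 1.

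**Figure D3:**
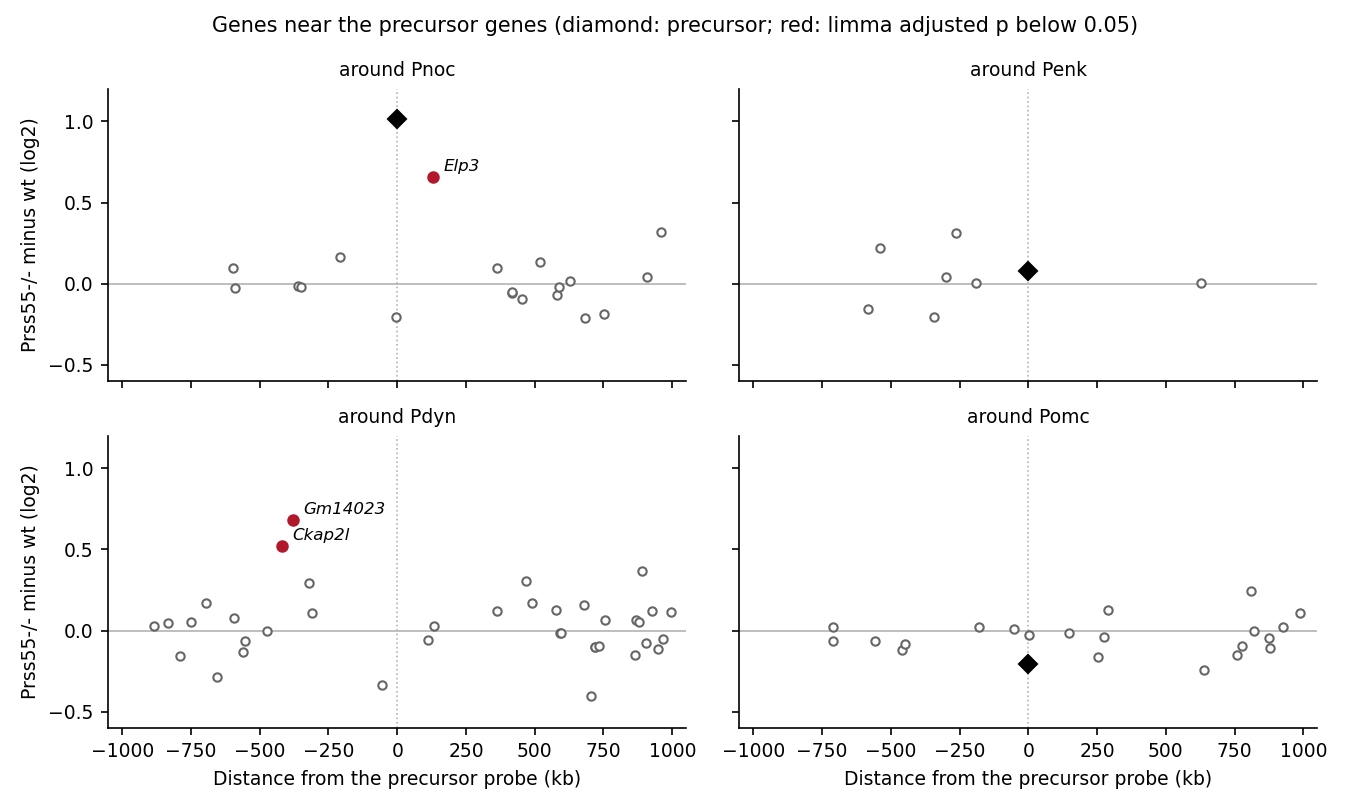
Log2 difference between *Prss55*-/- and wt testis for the tested named genes within 1 Mb of each precursor probe, against their distance in kb. Red points passed a limma adjusted p of 0.05 and diamonds are the precursors themselves (*Pdyn* was too dim to be tested). Near *Pnoc* 1 of 19 genes passed, near *Pdyn* 2 of 38, and near *Penk* and *Pomc* 0, beside 1.19% of all named genes tested.

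RNA of whole testis holds many cell types, and fewer cells of a type cannot be told apart from less RNA per cell. Beside *Pomc*, the median of the Leydig cell markers was lower on 2 of the 3 *Prss55*-/- arrays, although not every gene followed it. The median of the 6 Leydig cell genes on the array deviated from the wt mean by -0.014, -0.81 and -0.56 on the *Prss55*-/- arrays and by 0.11, -0.20 and 0.092 on the wt arrays. *Hsd3b6*, a steroid dehydrogenase gene, had the opposite sign, with a difference of 0.37 (limma adjusted p = 0.39), and *Hsd17b3*, which makes testosterone, read lowest, at 9.87, on *Prss55*-/- replicate 1. The summed signal of the list ranged from 22430 to 36280 in *Prss55*-/- and from 31030 to 38410 in wt testis. No gene of the list passed the limma adjusted threshold, 0 were higher and 2 lower at an unadjusted p below 0.05, and *Cyp11a1*, which makes pregnenolone from cholesterol, passed without *Prss55*-/- replicate 1, at -0.91 (limma adjusted p = 0.034). The *Pomc* values of the *Prss55*-/- arrays spanned 0.10, less than the SD of 0.12 within wt testis. Their order is therefore not read against the Leydig cell median. The part of Leydig cells in the *Pomc* signal was not tested.

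Beside *Pnoc*, the 9 Sertoli cell markers were each detected on the 6 arrays, and none passed the limma adjusted threshold. Their summed signal was 206000 to 210100 in *Prss55*-/- and 207600 to 222100 in wt testis, and their median difference was -0.033. *Amhr2* and *Clu* make up most of that sum, so it says little about the other Sertoli cell genes. Single Sertoli cell genes went both ways, from -0.27 (*Fshr*) to 0.26 (*Rhox5*). For germ cells, from which *Penk* transcripts are known, the marker lists had median differences of -0.012 for spermatogonia, -0.00010 for spermatocytes and -0.011 for spermatids. Single germ cell genes also went both ways, from -0.29 (*Dmc1*) to 0.35 (*Dmrt1*). The summed signal of the 8 spermatid genes was 1745000 to 1849000 in *Prss55*-/- and 1827000 to 1894000 in wt testis. Its brightest genes, *Tnp1*, *Prm1* and *Prm2*, lie at top ranks, which quantile normalization sets to the same values on every array. The sum therefore cannot show whether spermatid RNA differed. Peritubular and vascular cell genes had a median difference of -0.11, macrophage genes of -0.12 and blood genes of -0.055. The summed signal of the peritubular and vascular list was 15550 to 16390 in *Prss55*-/- and 16670 to 17820 in wt testis. That of the macrophage list was 2621 to 2806 and 2826 to 2972. Neither sum overlapped, and every tested gene of both lists was lower, although none passed the limma adjusted threshold. *Acta2*, with means of 13.51 in *Prss55*-/- and 13.65 in wt testis, makes up most of the first sum. Gene by gene, 2 of the 4 tested peritubular and vascular genes and 2 of the 5 macrophage genes did not overlap. Over all named genes tested, 28.1% did not overlap, 14.2% being lower. The cause was not tested. Of the 4 epididymis markers, 3 were not well above background on any array. Over all lists, of which *Insl3* and *Zbtb16* were not found on the array, 0 of 47 tested marker genes passed the limma adjusted threshold, with 5 higher and 9 lower at an unadjusted limma p below 0.05, together 14 of 47, beside 19.8% of all named genes tested. The methods' t-test gave 0 after adjustment.

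**Figure D4:**
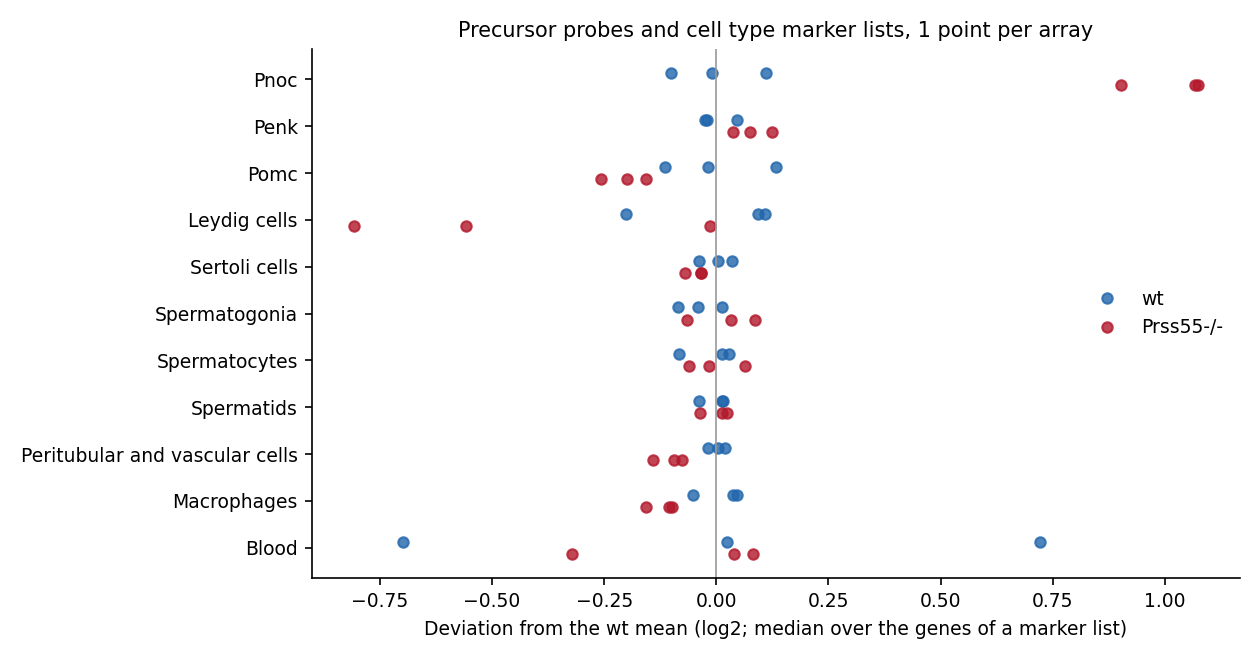
Deviation from the wt mean on the log2 scale for the brightest *Pnoc*, *Penk* and *Pomc* probes and for the median of each cell type marker list, with 1 point per array (wt in blue, *Prss55*-/- in red). *Pnoc* stands 0.90 to 1.07 above the wt mean on the *Prss55*-/- arrays, while the Leydig cell list is low on 2 *Prss55*-/- arrays. The medians of the Sertoli cell and germ cell lists stay near 0, although single genes of them differ both ways. Those of the peritubular and vascular list and of the macrophage list are slightly lower on every *Prss55*-/- array than on any wt array. Of single named genes tested, 28.1% did not overlap between the genotypes.

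The genes most like each precursor over the 6 arrays were found by the root mean square difference of their log2 profiles, each centred on its own mean, among 16582 named genes. For *Pnoc* they were *4932414J04Rik*, *Gm7225* and *Dtwd2*, at 0.053, 0.071 and 0.091, and their own differences were 0.95, 1.11 and 1.07. The *Pnoc* profile is mostly its difference between the genotypes, so genes chosen for likeness to it have differences of similar size by that choice. They lie on chromosomes 11, 17 and 18. The profiles nearest to *Penk* were those of *Ccs*, *1700001C02Rik* and *Rab31*, at 0.0077, 0.010 and 0.012. For *Pomc* they were *Cdkn2d*, *Ddb2* and *9530067L11Rik*, at 0.021, 0.024 and 0.025. All these points share the 6 arrays, and a flat profile such as that of *Penk* is near many genes.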

How the data were processed

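For each array the authors deposited the scanner file, made with Agilent Feature Extraction 10.7 per the submitters' processing notes. The deposited processed signal is a linear intensity from which the software has taken the background. A deposited table of log2 values, quantile-normalized as the methods state, correlated with the values used here at 0.99998 or more. Control spots and outlier spots were left out, signals below 1 were set to 1, and log2 intensities were quantile-normalized and averaged by probe. Of 41174 probes, 28615 had all 3 arrays of either genotype well above background and were tested with limma 3.58.1 in R 4.3.3 (lmFit, eBayes, two-sided). A gene was counted by its brightest tested probe. Positions are the array files' own, on mm9. Symbols were matched by name, then by RefSeq synonyms. Summaries and plots used Python 3.11.15. The precursors and gene lists were chosen with earlier results of these data known.

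Named were the precursors, *Prss55*, the opioid receptors, pathway, marker and neighbouring genes past the threshold, the 3 pathway genes of each list with the largest differences, and the 3 most similar genes. Other genes were named after their values were seen. Alternatives were 75th percentile scaling, normexp, the deposited matrix, no filter, slide as a random block, a replicate block, the methods' t-test and each array left out. The fit was tested on simulated data.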

Additional observations from a re-analysis of the deposited data

How the results depend on the processing

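The differences of the 4 tested precursor probes kept their sign under another scaling, background correction, the deposited matrix and each array left out. With 1 array left out they lay between 0.96 and 1.07 for the *Pnoc* 3′ probe, 0.058 and 0.10 for the *Penk* 3′ probe, 0.047 and 0.12 for the *Penk* peptide probe, and -0.26 and -0.14 for *Pomc*. The number of probes past the limma adjusted threshold was 345. It was 140 without the filter on dim probes, 87 by the methods' t-test, 340 to 357 with another scaling, background correction or the deposited matrix, 287 with slide as a random block, and 44 to 868 with 1 array left out (868, 57 and 44 without *Prss55*-/- replicates 1, 2 and 3, and 67 and 137 without wt replicates 1 and 2). Genes near *Pnoc* numbered 1, or 0 by the methods' t-test and 0 to 2 with 1 array left out. Genes near *Pdyn* numbered 2, or 3 with 75th percentile scaling (*Il1b* added), 0 by the methods' t-test, 0 without the filter and 0 to 2 with 1 array left out. Those near *Penk* and *Pomc* stayed at 0. Pathway genes numbered 0, and 0 to 1 with 1 array left out, as did marker genes, the exceptions being *Mme* and *Cyp11a1* without *Prss55*-/- replicate 1. With 1 array left out, small differences changed sign and ranged from -0.083 to 0.011 for *Oprl1*, -0.018 to 0.11 for *Chgb*, -0.033 to 0.066 for *Chga* and -0.042 to 0.076 for *Scg3*. The cause was not tested.

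Same-numbered arrays of the genotypes did not deviate together (correlations of -0.054, -0.023 and -0.11, and 0 of 3 arrays closest to their own number), so the numbers were not taken as pairs. With the replicate block, 13 probes passed, with 0 genes near *Pnoc* and 0 near *Pdyn*, and *Prss55* had an adjusted p of 0.10. Signals near background limit *Pdyn*, the *Pnoc* peptide probe, *Oprd1* and *Oprk1*.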
